A study of Homo sapiens with 8 samples.

Results

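Chemokines are small secreted proteins that direct the migration of leukocytes, and their receptors are G protein-coupled receptors that signal through inhibitory G proteins. In the bone marrow, the receptor CXCR4 and its ligand CXCL12 are known for retaining plasma cells, and myeloma cells are known to secrete ligands of CCR1 such as CCL3. CXCL10 is known as an interferon-induced ligand of CXCR3. The genes described here are 6 chemokine receptor genes (CCR1, CCR2, CCR7, CCR10, CXCR3 and CXCR4) and 4 ligand genes (CXCL10, CCL3, CCL4 and CCL5). They are 10 of the 63102 genes with a value in every library, found by their symbols in the deposited annotation. They were selected on the responses in these same libraries, so their fold changes with either compound are a description, and no p-value is given for any of them.

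The libraries were RNA-seq of LP-1, an established human multiple myeloma cell line, after 6 hr of treatment. SGC-CBP30, an inhibitor of the CBP and EP300 bromodomains, was used at 2.5 μM, and CPI203, an inhibitor of the BET family bromodomains, at 250 nM. Each compound had 2 libraries and was compared with the 2 DMSO (vehicle) libraries of its own naming series, referred to here as its experiment. All groups are the same cell line, the labels name no engineered genotype, and the groups differ in compound and experiment. The labels do not say whether libraries of a group came from separate cultures, although the study calls them biological replicates, so the spread may in part be technical. In bulk RNA, fewer cells that express a gene and less of its RNA per cell cannot be told apart.

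Levels are in RPKM, reads per kilobase of gene scaled to library size, so they can be compared between genes per length. Depth was estimated at 26000000 to 50100000 reads per library from the steps of low values, with the highest estimates for the SGC-CBP30 libraries. A multiple of a depth can fit such steps as well, so the lowest well-fitting depth was taken for each library. All 8 plasma cell markers examined (SDC1, CD38, TNFRSF17, PRDM1, XBP1, IRF4, MZB1 and SLAMF7) were present, at 10.9 to 531 RPKM. Of these, 2 were called lower with SGC-CBP30, beside 3.79% of all genes tested, and 4 with CPI203, beside 14.4%. The summed markers of monocytes, B cells and stromal cells stayed at or below 0.519 RPKM in every library. The sum of 8 T and NK cell markers was 0.0977 to 0.327 RPKM in the SGC-CBP30 experiment and 1.22 to 1.73 RPKM in the CPI203 experiment, and NCR1 was at 0 throughout. Fold changes are differences on the log2(RPKM + 0.1) scale, which understates the change of low genes. They were fitted with limma to the 14732 genes whose values averaged 1 RPKM or more. A gene is called changed at a Benjamini-Hochberg adjusted p under 0.05 and at least 1.5-fold. A permutation test of 2 libraries against 2 was not used, since it cannot reach that threshold.

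Promoters are given for CCR1 and CXCL10, which were lower with both compounds. That of CCL3, which was higher with SGC-CBP30 and not with CPI203, is given as well. Each is the 250 bases before a RefSeq start. The windows are chr3:46208314-46208563 for CCR1, chr4:76023498-76023747 for CXCL10 and chr17:36090144-36090393 for CCL3, all on the minus strand of GRCh38.p14. Capitals mark matches to an interferon-stimulated response element (ISRE, GAAANNGAAA), the NF-kB consensus or a TATA box (TATAAA).
CCR1: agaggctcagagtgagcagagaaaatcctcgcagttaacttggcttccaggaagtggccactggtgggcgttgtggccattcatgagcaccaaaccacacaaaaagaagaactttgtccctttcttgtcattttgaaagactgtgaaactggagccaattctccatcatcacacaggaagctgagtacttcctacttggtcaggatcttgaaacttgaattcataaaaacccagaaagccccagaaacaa
CXCL10: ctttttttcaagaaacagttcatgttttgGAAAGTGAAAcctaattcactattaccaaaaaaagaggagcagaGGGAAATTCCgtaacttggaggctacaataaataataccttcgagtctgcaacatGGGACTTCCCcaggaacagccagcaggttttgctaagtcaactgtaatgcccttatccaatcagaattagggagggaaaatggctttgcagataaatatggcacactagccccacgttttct
CCL3: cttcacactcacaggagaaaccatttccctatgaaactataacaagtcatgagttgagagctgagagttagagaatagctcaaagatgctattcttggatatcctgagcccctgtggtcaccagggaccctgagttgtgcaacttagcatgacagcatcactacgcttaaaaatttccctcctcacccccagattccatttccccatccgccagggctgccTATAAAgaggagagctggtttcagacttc
The CXCL10 window holds 1 ISRE match, from 221 to 212 bases before the start, and 2 NF-kB consensus matches, from 177 to 168 and from 122 to 113 bases before it. The CCR1 window holds no match to these letters or to GGAANNGAAA, a composite element of ETS and IRF factors. The CCL3 window printed holds a TATA box from 29 to 24 bases before the start. Windows of further RefSeq starts of CCL3, chr17:36089854-36090103 and chr17:36089699-36089948, hold no match to these letters. Searched on both strands, the ISRE occurs in 3.02% of 35116 such windows, the NF-kB consensus in 9.96%, the TATA box in 10.7% and the composite element in 2.41%. The ISRE and the composite element share all letters but 1 and can overlap. RefSeq windows were found for 6 of the 10 genes, and those of CCR7, CCR10, CCL4 and CCL5 were not printed. A match is a sequence description, and no binding was measured here.

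**Figure D1:**
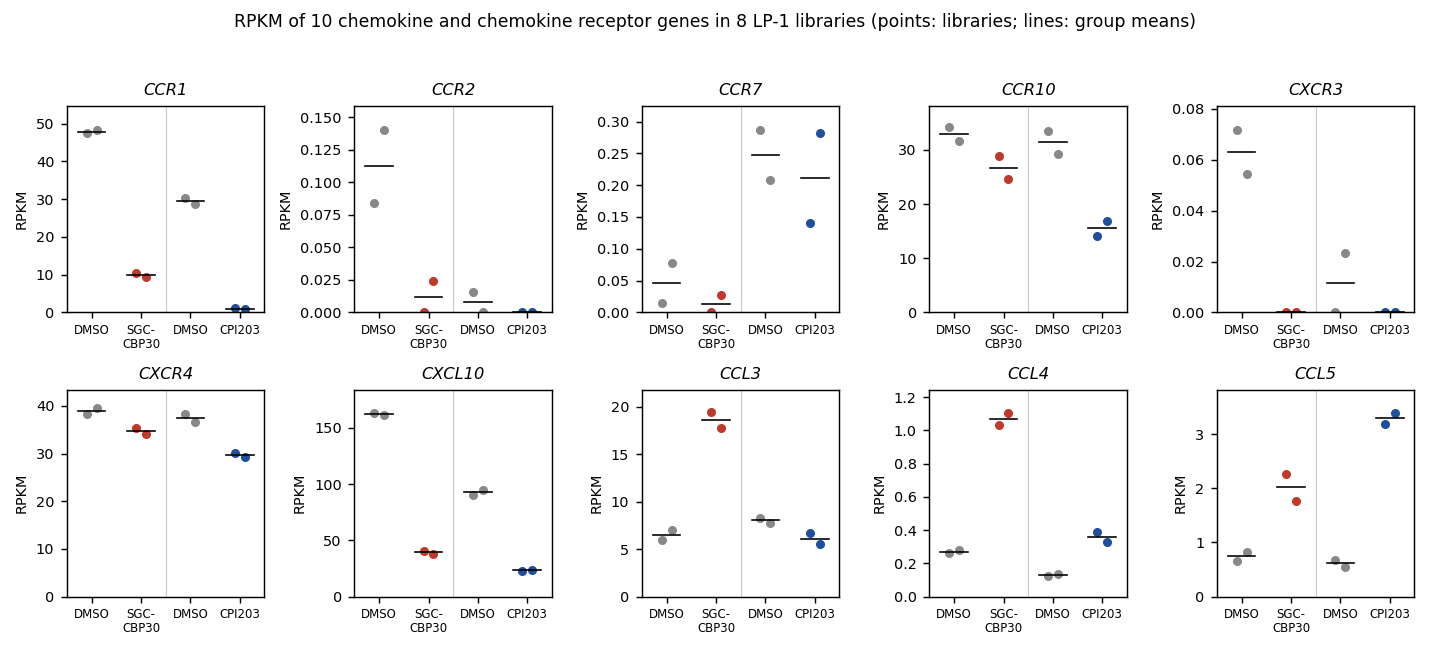
RPKM of the 10 genes in each library, with a linear axis from 0 in every panel. Points are libraries, lines are group means, and the left and right pairs of groups in a panel are the SGC-CBP30 and the CPI203 experiment. CCR1 and CXCL10 lie lower with both compounds, CCL5 and CCL4 lie higher with both, and CCL3 lies higher with SGC-CBP30.

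Among the 10 genes, 6 averaged 1 RPKM or more and were tested, namely CCR1, CCR10, CXCR4, CXCL10, CCL3 and CCL5. Because this mean is taken across all groups, a gene can pass through the groups where it is high. CCL5 did so through its treated libraries, with means of 0.74 and 0.61 RPKM in DMSO and 2.0 and 3.3 RPKM with the compounds. Its calls as higher are therefore tied to this filter. With SGC-CBP30, 2 of the 6 were called higher (CCL3 and CCL5), beside 3.47% of all genes tested, and 2 were called lower (CCR1 and CXCL10), beside 3.79%. With CPI203, 1 of the 6 was called higher (CCL5), beside 13.4% of all genes tested, and 3 were called lower (CCR1, CXCL10 and CCR10), beside 14.4%. Since the genes were picked for such responses, nothing is read from these shares. The median log2 fold change of the 6 genes was -0.24 with SGC-CBP30 and -0.70 with CPI203, against 0.07 and -0.01 for all genes tested.

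CCR1, a receptor for CCL3 and CCL5, showed the largest fall of the 6 genes with each compound. The gene (ENSG00000163823) is listed on chromosome 3 from 46243199 to 46249887 in hg19, the build named in the submitters' processing notes. In the SGC-CBP30 experiment CCR1 was at 47.5 and 48.3 RPKM in DMSO and at 10.4 and 9.47 RPKM with the compound. In the CPI203 experiment it was at 30.2 and 28.8 RPKM in DMSO and at 1.07 and 0.874 RPKM with the compound. Treated and control libraries did not overlap in either experiment. The log2 fold change was -2.26 (standard error 0.091) with SGC-CBP30 and -4.79 (standard error 0.091) with CPI203, and the mean with CPI203 was 0.0329 times that of its DMSO. Among the 14732 genes tested, CCR1 ranked 13 by fall with SGC-CBP30 and 2 with CPI203. The order of the group means was 47.9 ± 0.628 RPKM (SD, n = 2) in DMSO of the SGC-CBP30 experiment, 29.5 ± 1.04 in DMSO of the CPI203 experiment, 9.94 ± 0.660 with SGC-CBP30 and 0.971 ± 0.137 with CPI203. No neighbours in that order overlapped. Since the DMSO levels of the experiments differed, each compound was set against its own DMSO. With CPI203 the level was near 1 RPKM, an estimated 70.9 reads or more per library, and a pseudocount of 1 in place of 0.1 gave a log2 fold change of -3.95.

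The deposited position of CCR3, a receptor for eotaxins, runs from 46205095 to 46308197 on chromosome 3 and contains CCR1, so reads of the overlap may have been shared between them. CCR3 had 2.32 and 2.24 RPKM in DMSO and 0.795 and 0.648 RPKM with SGC-CBP30. It had 1.83 and 1.79 RPKM in DMSO and 0.559 and 0.416 RPKM with CPI203. The log2 fold change of CCR3 was -1.54 for SGC-CBP30 and -1.71 for CPI203. CCR3 averaged 1 RPKM or more only through its DMSO libraries, so its falls are tied to this filter and are a description. When the values of CCR1 and CCR3 were summed, the log2 fold changes were -2.23 and -4.34. Whether the change of CCR3 is separate from that of CCR1 was not tested.

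CXCR4, the receptor for CXCL12, was close to its DMSO level with both compounds. Its values were 38.4 and 39.7 RPKM in DMSO and 35.3 and 34.1 RPKM with SGC-CBP30, and 38.4 and 36.7 RPKM in DMSO and 30.1 and 29.2 RPKM with CPI203. All 4 treated libraries were below the DMSO libraries of their experiment, and the log2 fold changes of -0.17 and -0.34 (standard error 0.046) were below 1.5-fold in size. The gene (ENSG00000121966) lies on chromosome 2 from 136871918 to 136875735.

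CCR10, the receptor for CCL27 and CCL28 that is known from antibody-secreting cells of mucosa and skin, is listed on chromosome 17 from 40830906 to 40835935 (ENSG00000184451). It was at 34.3 and 31.6 RPKM in DMSO and 28.8 and 24.7 RPKM with SGC-CBP30, a log2 fold change of -0.31 (standard error 0.10). In the CPI203 experiment it was at 33.5 and 29.3 RPKM in DMSO and 14.1 and 16.9 RPKM with the compound, a log2 fold change of -1.01. The treated libraries lay below their DMSO libraries in both experiments, and only the change with CPI203 exceeded 1.5-fold. In DMSO of the CPI203 experiment the levels of CCR10 and CCR1 overlapped, whereas with CPI203 CCR10 remained at 15.5 ± 1.93 RPKM (SD, n = 2) and CCR1 was at 0.971 ± 0.137.

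The other receptor genes were near 0 and were not tested. CCR7, which guides lymphocytes to lymph nodes, had 0.0155 to 0.286 RPKM in the DMSO libraries and 0 to 0.282 RPKM in the treated ones, and treated and control libraries overlapped in both experiments. CCR2, the receptor for CCL2, had 0.0844 and 0.140 RPKM in DMSO and 0 and 0.0241 RPKM with SGC-CBP30. Beside CPI203, CCR2 had 0.0155 and 0 RPKM in DMSO and was listed at 0 with CPI203. CXCR3, the receptor for CXCL10, had 0.0715 and 0.0542 RPKM in DMSO and was listed at 0 in both SGC-CBP30 libraries. It was also listed at 0 in both CPI203 libraries and in 1 of their DMSO libraries, and had 0.0232 RPKM in the other. These levels correspond to at most an estimated 21 reads for CCR7, 17.8 for CCR2 and 4.6 for CXCR3 in any library, so changes of these genes were not resolved at this depth. CCR7 is listed on chromosome 17 from 38710020 to 38721724, CCR2 on chromosome 3 from 46395224 to 46402419 and CXCR3 on chromosome X from 70835765 to 70838367.

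CXCL10 was the most abundant of the 10 genes in the DMSO libraries and had a lower level with each compound. The gene (ENSG00000169245) lies on chromosome 4 from 76942272 to 76944650. In the SGC-CBP30 experiment it was at 163 and 161 RPKM in DMSO and at 40.6 and 38.0 RPKM with the compound. The CPI203 experiment had it at 90.7 and 94.9 RPKM in DMSO and at 22.5 and 23.9 RPKM with the compound. Treated and control libraries were far apart relative to the spread within groups, which was at most 2.99 RPKM (SD, n = 2). The log2 fold change was -2.04 with SGC-CBP30 and -1.995 with CPI203 (standard error 0.048 for each). The ranks by fall were 21 and 136 among all genes tested. The group means were ordered as those of CCR1 were, with 162 RPKM in DMSO of the SGC-CBP30 experiment, 92.8 in DMSO of the CPI203 experiment, 39.3 with SGC-CBP30 and 23.2 with CPI203. No neighbours in that order overlapped. While CPI203 left CCR1 at 0.0329 times its DMSO mean and CXCL10 at 0.250 times, SGC-CBP30 left them at 0.208 and 0.242 times.

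CCL3, also known as MIP-1 alpha, is a ligand of CCR1 and is listed on chromosome 17 from 34415601 to 34417515 (ENSG00000006075). It was at 5.98 and 7.04 RPKM in DMSO and 19.5 and 17.7 RPKM with SGC-CBP30. Values were 8.30 and 7.75 RPKM in DMSO of the CPI203 experiment and 6.68 and 5.54 RPKM with CPI203. Both SGC-CBP30 libraries were above their DMSO libraries and both CPI203 libraries were below theirs. The log2 fold change was 1.504 with SGC-CBP30 and -0.39 with CPI203 (standard error 0.11), and the first ranked 26 among all rises. Near-identical copies, CCL3L1 and CCL3L3, can share reads with CCL3. Summed over the 3 genes, the level rose from 6.77 to 20.1 RPKM with SGC-CBP30 and went from 8.39 to 6.29 RPKM with CPI203.

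CCL4, or MIP-1 beta, lies next to CCL3 on chromosome 17, from 34430982 to 34433014 (ENSG00000129277), and attracts monocytes and lymphocytes. With a mean of 0.457 RPKM over the 8 libraries it was not tested. It was at 0.259 and 0.282 RPKM in DMSO and 1.03 and 1.10 RPKM with SGC-CBP30, and at 0.125 and 0.139 RPKM in DMSO and 0.387 and 0.331 RPKM with CPI203. The means with the compounds were 3.95 and 2.72 times those of DMSO, without overlap between treated and control libraries. Together with its copies CCL4L1 and CCL4L2 it went from 0.335 to 1.76 RPKM with SGC-CBP30 and from 0.200 to 0.577 RPKM with CPI203. The estimated number of reads behind CCL4 was 7.33 to 105 per library.

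CCL5, or RANTES, a ligand of CCR1 known from T and NK cells, is listed on chromosome 17 from 34198494 to 34207797 (ENSG00000161570). It was at 0.665 and 0.820 RPKM in DMSO and 2.27 and 1.76 RPKM with SGC-CBP30. In the CPI203 experiment it was at 0.674 and 0.551 RPKM in DMSO and 3.19 and 3.39 RPKM with the compound. The treated libraries were above all DMSO libraries, and the log2 fold changes were 1.32 and 2.25 (standard error 0.20), or 2.71 and 5.37 times the DMSO mean. With a pseudocount of 1 these became 0.79 and 1.41, still past 1.5-fold. The summed T and NK cell markers were 0.194 to 0.327 RPKM in DMSO and 0.0977 to 0.234 RPKM with SGC-CBP30, and 1.22 to 1.25 RPKM in DMSO and 1.25 to 1.73 RPKM with CPI203. Their part in the CCL5 values was not tested. A second entry for CCL5 on a patch sequence was at 0 in all 8 libraries.

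**Figure D2:**
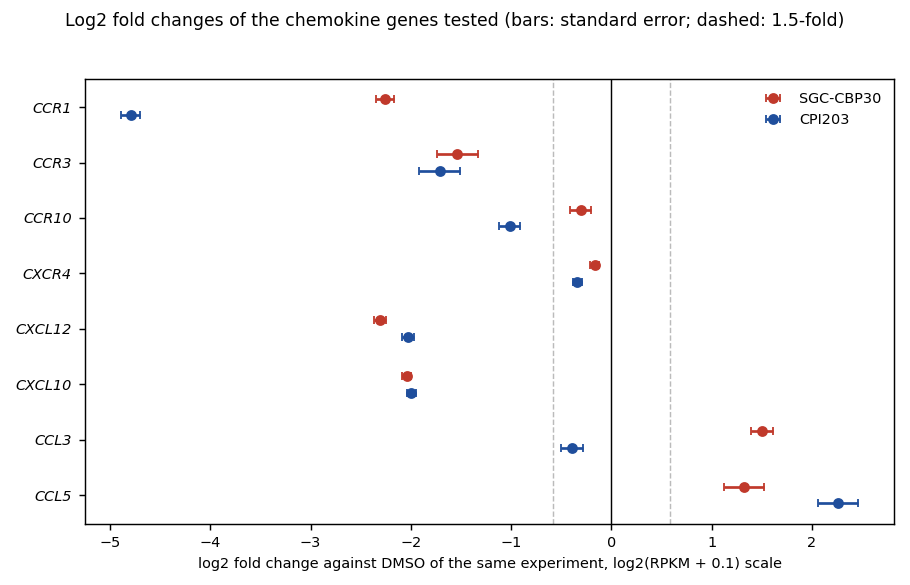
Log2 fold change of the 6 genes tested and of CCR3 and CXCL12, with SGC-CBP30 in red and CPI203 in blue, each against DMSO of its experiment. Bars are standard errors from limma and dashed lines mark 1.5-fold. CCR1 lies at -2.26 and -4.79, CXCL10 and CXCL12 lie near -2 with both compounds, and CCL3 lies on opposite sides of 0.

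Other chemokine genes were read from a list of all further ligands and receptors found in the annotation, 44 ligand and 16 receptor genes. Of these 60 genes, 39 were above 0 in at least 1 library and 2 were tested, CCR3 and CXCL12. Both were called lower with each compound, beside 3.79% of all genes tested with SGC-CBP30 and 14.4% with CPI203. CCR3 reached a mean of 1 RPKM through its DMSO libraries, with means of 2.28 and 1.81 RPKM against 0.72 and 0.49 RPKM with the compounds. Its position also contains CCR1, so these 2 genes are not read as a result about the list. CXCL12, the ligand of CXCR4, was at 67.3 and 69.4 RPKM in DMSO and 14.2 and 13.2 RPKM with SGC-CBP30, a log2 fold change of -2.31 (adjusted p = 6.76e-08 from limma). In the CPI203 experiment it was at 53.4 and 48.3 RPKM in DMSO and 12.3 and 12.4 RPKM with the compound, a log2 fold change of -2.03 (adjusted p = 9.28e-09 from limma). The change of CXCL12 was larger with SGC-CBP30 by 0.28 on the log2 scale (adjusted p = 0.0199 from limma for the difference), and the order turned with all 4 DMSO libraries as controls (-2.10 with SGC-CBP30 and -2.25 with CPI203). CXCR4 stayed within 1.5-fold of DMSO with both compounds. CCR3 did not differ detectably between the compounds (difference 0.17, standard error 0.29, adjusted p = 0.647). After their values were seen, 2 untested receptors were picked out. ACKR3, a scavenging receptor for CXCL12, was at 0.648 and 0.783 RPKM in DMSO and 0.0672 and 0.0655 RPKM with SGC-CBP30. In the CPI203 experiment ACKR3 was at 0.157 and 0.247 RPKM in DMSO and 0.0174 and 0.105 RPKM with the compound, also below its DMSO libraries. CX3CR1 was at 0.823 and 0.850 RPKM in DMSO and 0.0706 and 0.0519 RPKM with SGC-CBP30. With CPI203 and its DMSO, CX3CR1 was at 0.212 and 0.246 RPKM in DMSO and 0.0741 and 0.0649 RPKM with the compound, below its DMSO libraries as well.

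**Figure D3:**
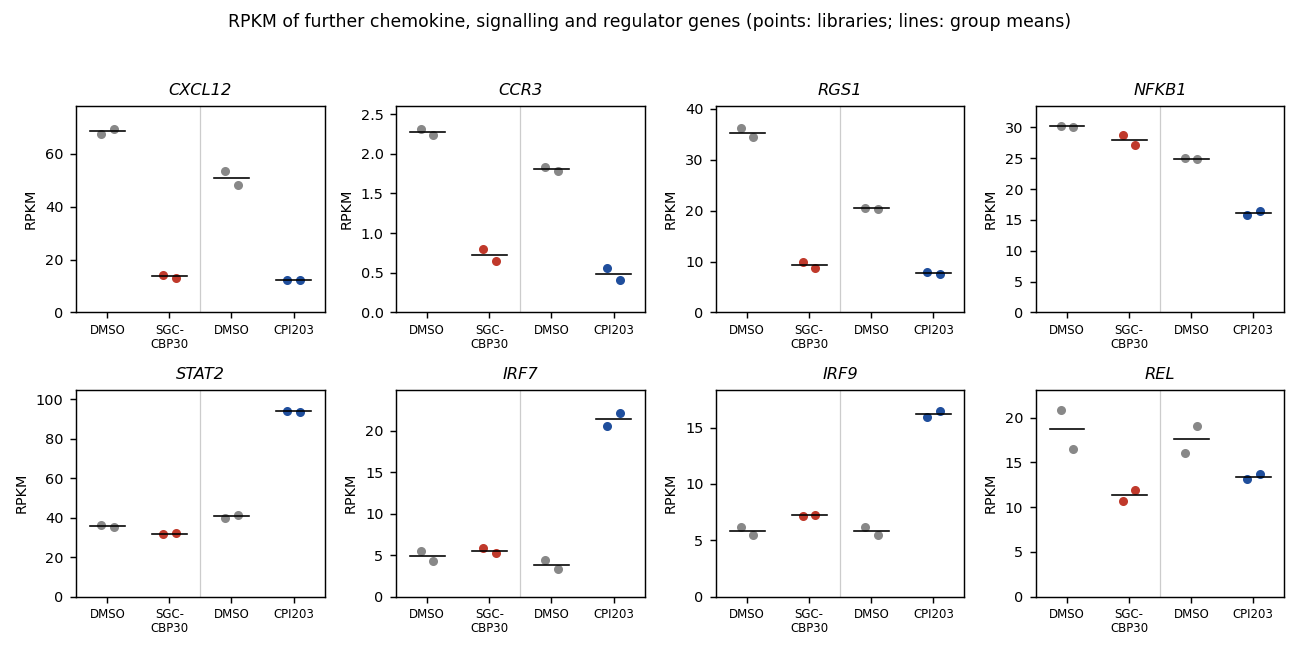
RPKM of CXCL12, CCR3, the signalling regulator RGS1 and 5 transcription factor genes in each library, with axes from 0. Points are libraries and lines are group means. CXCL12, CCR3 and RGS1 lie lower with both compounds, STAT2, IRF7 and IRF9 lie higher with CPI203, NFKB1 lies lower with CPI203, and REL lies lower with SGC-CBP30.

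Genes whose products are known to act on chemokine promoters were set beside CXCL10, which carries ISRE and NF-kB consensus matches. All 10 genes of that list were tested. With SGC-CBP30 none was called higher, beside 3.47% of all genes tested, and 1 was called lower, beside 3.79%. The lower gene was the NF-kB subunit REL, from 20.9 and 16.5 to 10.7 and 11.95 RPKM (log2 fold change -0.71, adjusted p = 0.00137 from limma). That change was -0.54, short of 1.5-fold, without the first DMSO library. With CPI203, 3 of the 10 were called higher, beside 13.4% of all genes tested, and 1 was called lower, beside 14.4%. The lower gene, NFKB1, the p50 subunit of NF-kB, fell by 0.63 on the log2 scale (adjusted p = 3.15e-06). The 3 genes called higher with CPI203 act downstream of interferon. IRF7 rose from 4.40 and 3.28 to 20.6 and 22.2 RPKM (log2 fold change 2.46, adjusted p = 5.31e-07). IRF9 rose by 1.46 (adjusted p = 4.35e-07) and STAT2 by 1.20 (adjusted p = 1.8e-08) on the log2 scale. STAT2, IRF7 and IRF9 rose in the CPI203 libraries in which CXCL10 was at 0.250 times its DMSO mean, and a link was not tested. RELA, RELB, IRF1 and IRF3 were not called with either compound, and RELA had log2 fold changes of 0.02 and 0.03.

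Genes of signalling below chemokine receptors were examined as a list of 45, of which 34 were tested. With SGC-CBP30, 1 was called higher, beside 3.47% of all genes tested, and 7 were called lower, beside 3.79%. The median log2 fold change was -0.09 against 0.07 for all genes tested. The lower genes were RGS1, PTK2B, RHOH, VAV1, ELMO1, GRK6 and RAC2, and the higher one was GRK5, a receptor kinase at 2.80 to 4.78 RPKM in that experiment. RGS1, an inhibitor of signalling by inhibitory G proteins, fell from 36.2 and 34.4 to 9.98 and 8.74 RPKM (log2 fold change -1.91, adjusted p = 3.28e-07 from limma). PTK2B, a tyrosine kinase activated by chemokine receptors, fell from 191 and 191 to 91.1 and 86.6 RPKM (log2 fold change -1.10, adjusted p = 3.59e-07). RAC2, a GTPase of leukocyte movement, and GRK6 were no longer called when all 4 DMSO libraries served as controls, with adjusted p = 0.0729 and 0.244 from limma.

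With CPI203, 5 of the 34 signalling genes were called higher, beside 13.4% of all genes tested, and 8 lower, beside 14.4%, with a median log2 fold change of 0.03 against -0.01 for all genes tested. The largest fall was that of RGS16, a further regulator of G protein signalling, from 19.5 and 19.7 to 2.48 and 2.45 RPKM (log2 fold change -2.94, adjusted p = 2.69e-09 from limma). RGS16 was not called with SGC-CBP30 (-0.09, adjusted p = 0.358), and the responses differed by 2.85 on the log2 scale (adjusted p = 1.19e-07). RGS19, RHOH, RGS1 and RGS14 fell by 1.58, 1.56, 1.39 and 1.00 on the log2 scale. PRKCB, JAK2, PLCB3, GRK5 and GNAI2 rose by 1.23, 0.82, 0.74, 0.63 and 0.63. GNAI2, which encodes an inhibitory G protein subunit, was at 52.1 and 49.0 RPKM in DMSO and 76.9 and 79.5 RPKM with CPI203. Genes called with both compounds were RGS1, PTK2B, RHOH and GRK5, each in the same direction with both. GRK5 was near the 1.5-fold threshold. It fell short of it with CPI203 at a pseudocount of 1 (0.53), and with SGC-CBP30 at that pseudocount (0.49), after median scaling (0.54) or quantile normalization (0.55), against all 4 DMSO libraries (0.47), without the first SGC-CBP30 library (0.54) and without the first DMSO library (0.56). GNAI2 fell short of it with CPI203 against all 4 DMSO libraries (0.50) and without the second DMSO library (0.58).

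**Figure D4:**
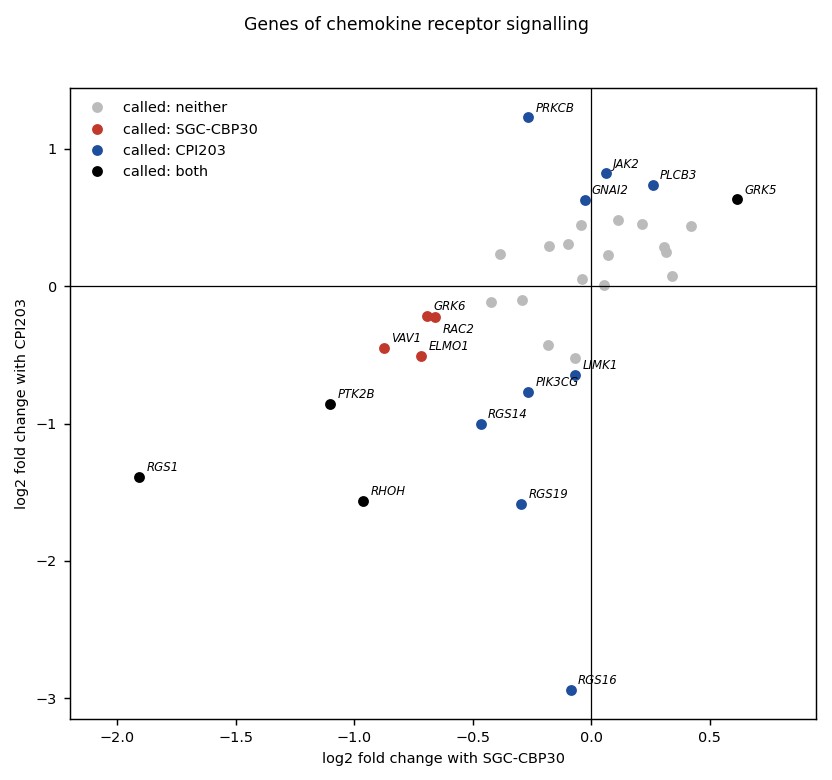
Log2 fold changes of the 34 signalling genes tested, with SGC-CBP30 on the horizontal axis and CPI203 on the vertical axis, each against DMSO of its experiment. Each point is a gene and its colour shows with which compound it was called. RGS1, PTK2B and RHOH lie lower with both, whereas RGS16 lies at -2.94 with CPI203 and at -0.09 with SGC-CBP30.

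The genes most like CCR1 and CXCL10 over the 8 libraries were found by the root mean square difference of log2 profiles centred on their means. For CCR1 these were RAB36 (0.321), RP11-320N7.1 (0.552), HVCN1 (0.591), LRRC14B (0.628) and SSTR3 (0.636). All 5 had negative log2 fold changes with both compounds, larger in size with CPI203, such as -1.65 and -4.37 for RAB36 and -1.61 and -3.33 for HVCN1, a proton channel gene. For CXCL10 they were GPRC5D (0.198), RAB33A (0.241), CD48 (0.260), RGS1 (0.260) and CXCL12 (0.271). GPRC5D, an orphan receptor gene known from plasma cells, had means of 13.2 and 2.98 RPKM in DMSO and with SGC-CBP30, and of 6.12 and 2.13 RPKM in DMSO and with CPI203. The likeness rests on 8 libraries of 4 groups and is a description.

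Genes that start within 250 kb of the start of one of the 10 genes were taken from the deposited positions. They number 166, of which 113 were above 0 somewhere and 40 were tested. With SGC-CBP30, 1 was called higher, beside 3.47% of all genes tested, and 1, CCR3, was called lower, beside 3.79%. With CPI203 none was called higher, beside 13.4%, and 8 were called lower, beside 14.4%. Near CXCL10, the 5 tested genes had log2 fold changes of -0.32 to 0.56 with SGC-CBP30 and of -0.94 to 0.38 with CPI203, and the only one called was SDAD1, 80.2 kb away. SDAD1 was at 26.9 and 26.7 RPKM in DMSO and 14.3 and 13.5 RPKM with CPI203 (log2 fold change -0.94, adjusted p = 2.91e-07 from limma). The only tested neighbour of CCR1 was CCR3, which averaged 1 RPKM or more only through its DMSO libraries. Near CXCR4, AC093391.2 rose from 1.18 and 1.24 to 3.54 and 3.85 RPKM with SGC-CBP30 (log2 fold change 1.53, adjusted p = 0.000271), while the log2 fold change of CXCR4 was -0.17. Near CCR7, RARA, KRT222 and CTD-2267D19.3 were called lower with CPI203, and CCR7 itself was near 0. Of 19 tested genes near CCR10, 3 were called lower with CPI203, namely CNTNAP1, WNK4 and TUBG1, with log2 fold changes of -0.61, -0.70 and -0.59. These 3 and KRT222 fell short of 1.5-fold with a pseudocount of 1, and CNTNAP1 and TUBG1 also without the first DMSO library of the CPI203 experiment (-0.56 and -0.54). Near CCL3 and CCL4 a single gene was tested, AC015849.14, which was not called with either compound, nor were AC015849.14 and TAF15 near CCL5.

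**Figure D5:**
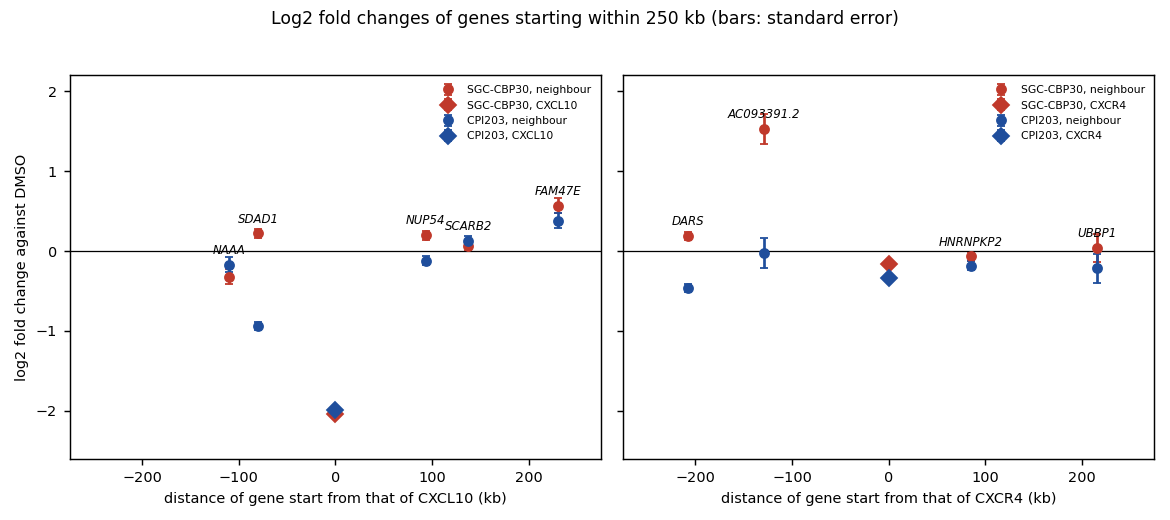
Log2 fold changes of tested genes within 250 kb of CXCL10 (left) and CXCR4 (right) against the distance of their starts in kb along the chromosome, with standard errors as bars. Circles are neighbours and diamonds are CXCL10 and CXCR4 themselves. CXCL10 lies near -2 with both compounds, below all 5 tested neighbours, and AC093391.2 lies above CXCR4 with SGC-CBP30.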

How the data were processed

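RNA-seq of LP-1 cells was analysed from the RPKM values that the authors deposited, 1 per gene and library. Total RNA was prepared with DNase treatment on the column, and a service provider sequenced and mapped the libraries. The submitters' processing notes name TopHat 1.4.1, Cufflinks and hg19. The library kit and its strandedness are not given in the sources used here. Another 24 columns of libraries outside this series were not used, and 27 genes lacking a value were dropped. Gene symbols and hg19 positions came from the deposited annotation. Promoters came from RefSeq (GRCh38.p14) and were joined by symbol only.

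Each compound was set against DMSO of its naming series in the labels. All 8 libraries were fitted together on log2(RPKM + 0.1) with limma 3.58.1 (R 4.3.3, intensity trend), with Benjamini-Hochberg adjustment across all 14732 tested genes. The fit was tested on simulated data. The members and the gene lists were chosen with earlier results of these data known. Genes named outside the members were the called genes of each list, at most 5 rises and 5 falls where more than 10 were called, tested regulators, and the 5 genes most like CCR1 and CXCL10. CCRL2 was not analysed here, and some genes of the lists are not reported here. Read numbers per gene are estimates from the depth and exon lengths of GENCODE 29. At the depth estimated, between 60.6% and 73.2% of low values of single-exon genes fell within 0.1 of a whole read. Such numbers bear on counting error only. Alternatives were other pseudocounts, filters, scalings, controls, thresholds and fits, a replicate block, and each library left out.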

Additional observations from a re-analysis of the deposited data

Results flagged for a closer look

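The genes considered were the chemokine genes described, the regulators, and the called genes of the other chemokine, signalling and neighbour lists. For 6 of them both libraries of 1 compound lay above their DMSO libraries and both of the other compound lay below theirs. Further genes of the lists outside this choice did so too, such as RGS2, RHOA, CFL1 and GNB2 among the uncalled signalling genes and the plasma cell markers PRDM1 and SDC1, and they were not followed up. The share of all genes tested with this pattern is not given here, so nothing is read from the count of 6. The log2 fold change of CCL3 with SGC-CBP30 minus that with CPI203 was 1.90, since both SGC-CBP30 libraries lay above and both CPI203 libraries lay below their DMSO libraries. That difference was not tested, because CCL3 was chosen on these responses. The other genes were flagged by this pattern in the same values, so their differences are a description and are given without p-values. The difference was -0.66 for GNAI2, -1.37 for STAT2 and -0.89 for IRF1, for which SGC-CBP30 libraries lay below and CPI203 libraries above DMSO. It was 1.16 for SDAD1 and 0.99 for CTD-2267D19.3, for which SGC-CBP30 libraries lay above and CPI203 libraries below DMSO. The fold changes of GNAI2 and CTD-2267D19.3 with SGC-CBP30 were -0.03 and 0.10, with adjusted p = 0.631 and 0.517 from limma.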

How the results depend on the processing

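Of 120 counts of called genes under alternatives, 106 stayed within 1.5 times the reported count, 9 were lower and 5 higher. Fold changes of single genes under alternatives numbered 673. Of these, 20 of called genes outside the 10 chemokine genes described were no longer called. A further 19, of the 10 genes, moved by at least the replicate SD. No called change turned its direction. Filters, replicate blocks, separate fits and the fit without a trend leave a fold change as it is, so they could not turn it. With no filter on low values, 7 of the 10 chemokine genes described were called with SGC-CBP30 and 5 with CPI203. Of 39 other chemokine genes 9 and 5 were called, and of 113 neighbours 8 and 13. Beside these, 1249 and 5352 of the 33312 genes above 0 were called. The 10 genes were chosen on these responses, so nothing is read from their counts. With a mean of at least 5 RPKM, CCL5 was no longer tested, and 3 of the 5 chemokine genes described that remained were called with each compound. At that filter 1 other chemokine gene was called with each compound, and 8 of 27 signalling genes with CPI203. Of 30 neighbours, 0 were called with SGC-CBP30 and 4 with CPI203, since fewer genes were tested. Over all genes, 505 were called with SGC-CBP30 and 2590 with CPI203, of a total not given here. At 2-fold, 2 signalling genes were called with SGC-CBP30 and 6 with CPI203, and 2 neighbours with CPI203. The share of all genes called at 2-fold is not given here. With a pseudocount of 1, 4 of 40 neighbours were called with CPI203, beside 3316 of the 14732 genes tested. When all 4 DMSO libraries served as controls, CCR1 had log2 fold changes of -1.91 and -5.14, and CXCL10 of -1.64 and -2.40. The study calls its DMSO controls paired, but the labels do not say whether equal replicate numbers mark the pairs. Replicate differences of compound and DMSO correlated at -0.172 and -0.0395 over 8298 genes. Pairing by number is not seen in these values, but they cannot exclude it, since each group gives a single difference per gene. With the replicate number as a block, 4 chemokine genes were called with each compound, 8 and 13 signalling genes and 2 and 8 neighbours, as reported. With the numbers crossed, an alternative chosen after seeing the data, these counts were again 4, 8 and 2 for SGC-CBP30 and 4, 13 and 8 for CPI203. The sums over CCL3, CCL4 and CCR1 with their copies or overlapping gene were also chosen after seeing the data. With each library left out in turn, counts stayed within 1.5 times those reported. Depth limits CCL4, CCR2, CCR7 and CXCR3 and hardly limits CXCL10.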
